A study of Mus musculus with 12 samples.

Results

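A set of 9 genes that mark neural stem cells, dividing progenitors and young neurons was followed in the mouse hippocampus: Nes, Sox2, Eomes, Neurod1, Sox11, Dcx, Mki67, Top2a and Prc1. They were chosen by role, with earlier results of these data known, and every probe that the array's annotation gives to them was read. Of the 9 genes, 8 had at least 1 probe and 7 had a probe that could be tested, out of 11401 genes with a tested probe in the whole series. The tissue came from male C57BL/6J mice aged 3 weeks. The ethanol group was exposed before birth through dams that chose to drink ethanol at 10% by volume between 0.5 and 8.5 days after conception, and is represented by 6 arrays. The control group, also 6 arrays, consisted of male mice of the same strain and age without that exposure. Because the drinking ended well before the dentate gyrus forms, any difference was measured long after the exposure. How the mice fall into litters is not given by the labels, and the p-values are therefore set by the variation among these arrays, which may include technical and litter effects.

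New neurons are added to the dentate gyrus of rodents after birth. Radial glia-like stem cells in the subgranular zone, marked by the intermediate filament nestin (Nes) and the transcription factor Sox2, give rise to intermediate progenitors that express the T-box factor Tbr2, encoded by Eomes. The bHLH factor Neurod1 follows as these cells commit to the granule neuron fate, and Sox11 and the microtubule-binding protein doublecortin (Dcx) mark the neuroblasts and immature neurons. Dividing cells at any of these stages carry the proliferation antigen Ki-67 (Mki67), the DNA topoisomerase Top2a, which untangles chromosomes, and Prc1, which bundles the microtubules of the central spindle during cytokinesis. Nestin is also made by endothelial cells and pericytes, and Sox2 by astrocytes. In whole tissue, fewer cells of a type and less RNA per cell cannot be told apart.

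Each array measured 45281 probes, of which 20804 to 21672 were detected per array at a detection p-value under 0.05. A probe was tested if it was detected on at least 6 of the 12 arrays, which left 21263 probes, and all levels below are log2 signals after background correction and quantile normalization. The 9 hippocampal marker genes that could be tested, of 12 listed, were detected on all 12 arrays. The titles carry 1 of 2 numbers, each on 3 arrays of either group, and these are taken here for the beadchips, called 1 and 2. On 4 arrays, ethanol 1, ethanol 3, control 1 and control 4, the choroid plexus gene Ttr lay between 8.33 and 11.00, against 15.56 to 15.81 on the other 8. Where the difference of a gene's brightest tested probe turned in sign or moved by over 1.5 times without these arrays, that value is given too.

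Of the 20 member probes, 9 were detected on all 12 arrays and 8 on none. Nes had 2 probes, Sox2 had 2, Sox11 had 4, Neurod1 had 1, Dcx had 4, Top2a had 3 and Prc1 had 2. Sox2, Sox11 and Dcx had 2 tested probes each, and Nes, Neurod1, Top2a and Prc1 had 1 each. Eomes had 2 probes, of which one was detected on 1 ethanol and 1 control array and the other on no array, so no difference was tested. Mki67 had no probe in the annotation used here and was not analysed. Top2a was close to the detection limit, its tested probe passing detection on 4 ethanol arrays and 5 control arrays.

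No member gene passed an adjusted p of 0.05 between ethanol and control, and neither did any other probe (0 of 21263, or 0%). At an unadjusted limma p under 0.05 stood 1022 probes (4.81%), 500 lower and 522 higher in ethanol mice, and with arrays scaled to a common median the split was 256 lower and 942 higher. The largest difference among the members was in Nes, which averaged 5.91 ± 0.30 in ethanol mice and 6.40 ± 0.24 in control mice (SD, n = 6 each). Prc1 came next, and the brightest tested probes of 5 of the 7 genes were lower in ethanol mice, which are described below by role. Across all tested probes 49.3% were lower in ethanol mice.

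**Figure D1:**
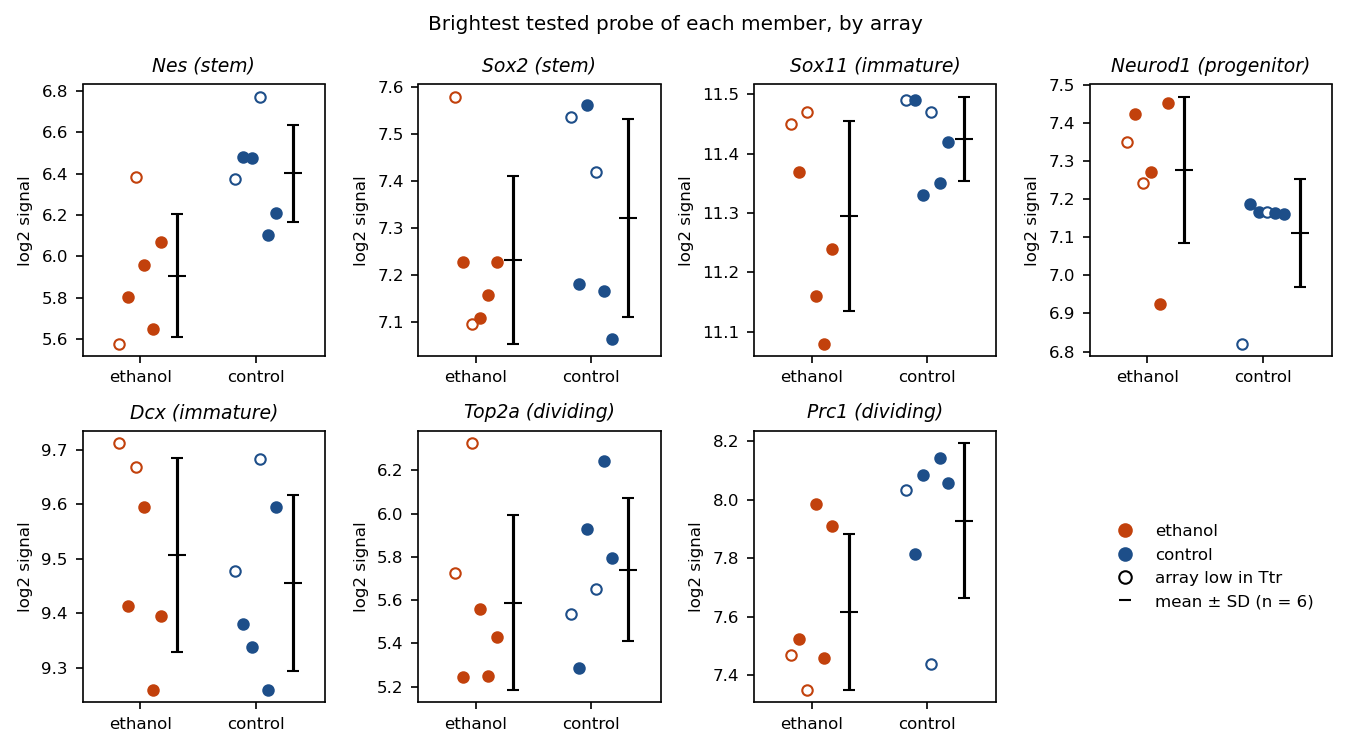
Log2 signal (vertical axis) of the brightest tested probe of each member gene, 1 panel per gene, with the 6 ethanol arrays on the left and the 6 control arrays on the right. Points are arrays, open circles are the 4 arrays low in Ttr and bars are mean ± SD. In Nes, 5 of 6 ethanol arrays lie below the whole control group, and in no gene are the groups fully apart.

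Among the stem cell genes, Nes (chromosome 3, 87971093 to 87980451, GRCm38.p6) had a lowest, median and highest log2 signal of 5.58, 5.88 and 6.38 in ethanol mice, against 6.10, 6.43 and 6.77 in control mice. Of the ethanol arrays 5 of 6 lay below every control array, and only ethanol 3 reached into the control range. The difference was -0.50 (95% interval -0.80 to -0.19), a level 0.71-fold that of control, with an adjusted limma p of 0.993. Before adjustment, 74 of the 21263 probes (0.348%) had a limma p at or under that of Nes. An exact two-sided permutation test over all splits of the 12 arrays gave a p of 0.013 for Nes. Beadchip 1 alone gave -0.52 and beadchip 2 alone gave -0.47, and the difference was -0.45 without the 4 arrays low in Ttr. Nes was dim, with raw signals of 152.1 to 220.5, and without background subtraction the difference was -0.20.

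Sox2 (chromosome 3, 34649995 to 34652461) differed by less than the SD of either group. Its log2 signal ranged from 7.10 to 7.58 with a median of 7.19 in ethanol mice, against 7.06 to 7.56 with a median of 7.30 in control mice. The groups overlapped throughout, and the highest array of all was ethanol 1. The difference was -0.089 (95% interval -0.32 to 0.15) on this probe and -0.11 (95% interval -0.56 to 0.34) on the other tested probe. The deviations of these 2 Sox2 probes did not follow each other over the 12 arrays (Pearson r = 0.00079, permutation p = 0.998).

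Neurod1 (chromosome 2, 79452637 to 79456636), the measured gene of the progenitor stage, was one of 2 members with a higher mean in ethanol mice. Its log2 signal ran from 6.92 to 7.45 with a median of 7.31 in ethanol mice, against 6.82 to 7.19 with a median of 7.16 in control mice. Ethanol arrays lay above the whole control group in 5 of 6 cases, while ethanol 5 lay below all control arrays but control 1. The difference was 0.17 (95% interval -0.044 to 0.38), with an adjusted limma p of 1.00 and an exact permutation p of 0.115. It was 0.098 without the arrays low in Ttr.

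No probe of the young neuron genes Sox11 and Dcx passed the test. Sox11 (chromosome 12, 27334268 to 27342718) had a lowest, median and highest log2 signal of 11.08, 11.31 and 11.47 in ethanol mice, against 11.33, 11.45 and 11.49 in control mice. The 3 ethanol arrays of beadchip 2 lay below all control arrays, whereas those of beadchip 1 lay within the control range. The difference was -0.13 (95% interval -0.30 to 0.039), and on the other tested probe it was -0.24 (95% interval -0.48 to 0.00061, exact permutation p = 0.0584, adjusted limma p = 1.00). Dcx (chromosome X, 143855842 to 143933396) ran from 9.26 to 9.71 with a median of 9.50 in ethanol mice, against 9.26 to 9.68 with a median of 9.43 in control mice. The groups covered nearly the same range. The difference was 0.052 (95% interval -0.16 to 0.26) over all arrays and 0.022 without those low in Ttr, and the other tested probe gave 0.21 (95% interval -0.025 to 0.44, exact permutation p = 0.102).

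Of the genes of dividing cells, Prc1 (chromosome 7, 80294445 to 80316259) had a lowest, median and highest log2 signal of 7.35, 7.50 and 7.99 in ethanol mice, against 7.44, 8.04 and 8.14 in control mice. In 4 cases control arrays lay above every ethanol array, and control 4, an array low in Ttr, lay among the low ethanol arrays. The difference was -0.31 (95% interval -0.61 to -0.010), with an adjusted limma p of 1.00 and an exact permutation p of 0.0779. It was -0.53 on beadchip 1 and -0.093 on beadchip 2, and -0.30 without the arrays low in Ttr. No member probe had a group difference that differed between the beadchips at an unadjusted p under 0.05 (4.2% of all tested probes did), and for Prc1 the adjusted limma p of that interaction was 1.00. No member probe differed between the beadchips themselves after adjustment (0.0282% of all tested probes did). Nes and Prc1 were the 2 members lower in ethanol mice at an unadjusted limma p under 0.05, where 2.35% of all tested probes were lower. No member was higher, where 2.45% of probes were.

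Top2a (chromosome 11, 98992947 to 99024199) ran from 5.24 to 6.32 with a median of 5.50 in ethanol mice, against 5.29 to 6.24 with a median of 5.72 in control mice. The groups overlapped, and the highest array was ethanol 3, which is low in Ttr. The difference was -0.15 (95% interval -0.56 to 0.25) over all arrays and -0.44 without the 4 arrays low in Ttr, and passed the adjusted threshold in neither fit. It was 0.18 on beadchip 1 and -0.48 on beadchip 2. No member probe had ethanol and control arrays that did not overlap, a pattern that 43 probes of the series showed (0.202%).

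**Figure D2:**
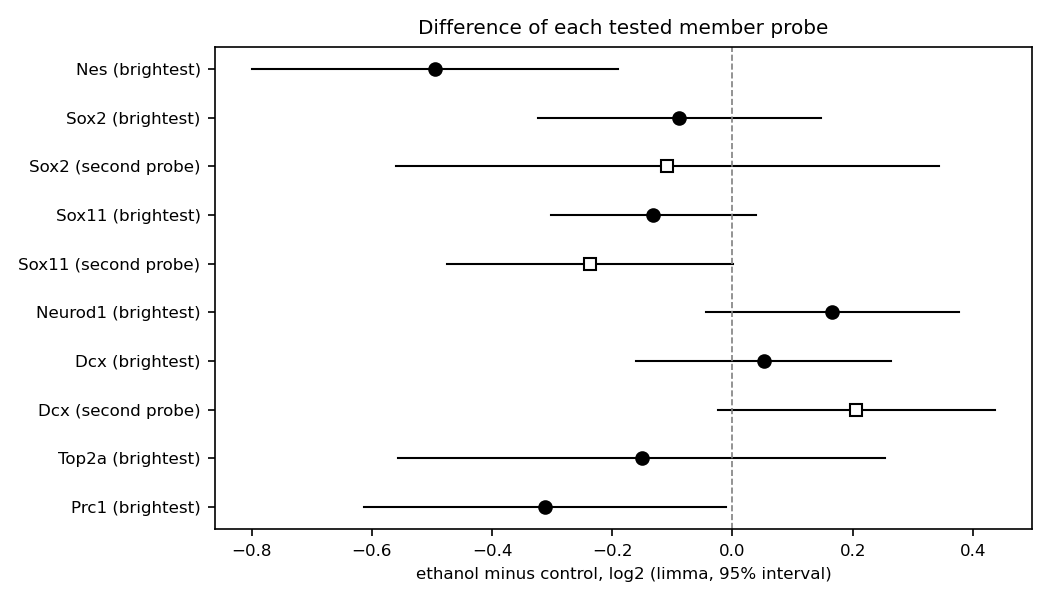
Difference of each of the 10 tested member probes, ethanol minus control on the log2 scale (horizontal axis), with 95% intervals from limma. Filled circles are the brightest tested probe of a gene and open squares its other tested probe. The intervals of Nes (-0.80 to -0.19) and Prc1 (-0.61 to -0.010) lie below 0 and all the others reach across it.

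Genes around the members were read from lists by stage and process that leave the members out, none of which held a gene past the adjusted threshold. Among 23 tested stem cell and radial glia genes, 9 were lower and 14 higher in ethanol mice, with a median difference of 0.026, against 48.1% of all 11401 tested genes lower and a median of 0.0047. The list's mean log2 signal was 8.91 in ethanol mice and 8.90 in control mice, above that of Nes. It was not split by cell type, and the part of astrocytes in it was not tested. Tnc, the matrix glycoprotein tenascin C of astrocytes and stem cell niches, averaged 7.31 ± 0.38 in ethanol mice and 7.86 ± 0.22 in control mice (SD, n = 6 each). All 6 ethanol arrays, from 6.57 to 7.55, lay below all 6 control arrays, from 7.61 to 8.13. The difference in Tnc was -0.55 (adjusted limma p = 0.993), with an exact permutation p of 0.0022, the smallest that 6 against 6 arrays can give. Its other tested probes gave -0.17 and -0.56. Tnc is named for the smallest p of its list, and 43 of the 21263 tested probes (0.202%) had groups that did not overlap. Fabp7, the brain lipid-binding protein of radial glia, differed by -0.42 (exact permutation p = 0.0411), near the detection limit with 4 of 6 arrays detected in either group. Its 2 control arrays low in Ttr, 5.37 and 5.39, lay within the ethanol range of 5.21 to 5.55, and the other control arrays lay above it. Without the arrays low in Ttr the difference in Fabp7 was -0.68. Prom1, the membrane protein CD133, and Emx1, a transcription factor of the dorsal telencephalon, had differences of 0.27 and 0.26 (exact permutation p = 0.026 and 0.0455).

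The progenitor and neuroblast list was nearly even, with 9 of 16 genes lower in ethanol mice and a median of -0.010. Its smallest p-values were those of the Notch ligand Dll1 (-0.23, exact permutation p = 0.0736) and the RNA-binding protein gene Mex3a (-0.18), which gave -0.41 and -0.15 without the arrays low in Ttr, followed by the zinc finger factor Insm1 (-0.14) and by Rgs5 (-0.14), which pericytes also express. The immature neuron list had 10 of 27 genes lower and a median of 0.028. In it the stathmin gene Stmn4 differed by 0.23, the growth cone protein gene Basp1 by -0.29, the tubulin gene Tubb2a by 0.17 and the neuropeptide gene Tac2 by 0.22. The part of mature neurons in that list was not tested.

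Cell cycle genes were split in direction. Of the S phase list, 9 of 20 genes were lower in ethanol mice with a median of 0.011. Chaf1b, a subunit of the histone chaperone CAF-1, differed by 0.32 (exact permutation p = 0.026), but passed detection on 5 ethanol arrays and 2 control arrays, and differed by 0.090 without the arrays low in Ttr. The DNA ligase gene Lig1 differed by 0.22, the replicative helicase gene Mcm5 by -0.14 and the maintenance methylation factor gene Uhrf1 by -0.15. Without the arrays low in Ttr the difference in Lig1 turned to -0.032 and that in Uhrf1 was -0.24. Only 22 of the 45 listed G2 and mitosis genes had a tested probe, of which 13 were lower, with a median of -0.030 and of -0.13 without the arrays low in Ttr. Nusap1, a spindle protein that binds microtubules, averaged 6.07 ± 0.24 in ethanol mice and 6.45 ± 0.23 in control mice (SD, n = 6 each). Nusap1 ran from 5.83 to 6.46 in ethanol mice and from 6.04 to 6.66 in control mice, a difference of -0.38 (exact permutation p = 0.0238, adjusted limma p = 1.00). The condensin gene Smc2 differed by -0.42 (exact permutation p = 0.0736, detected on 3 ethanol arrays and 5 control arrays), the mitotic transcription factor gene Foxm1 by 0.27 and the kinase gene Cdk1 by -0.18. Smc2 differed by -0.22 without the arrays low in Ttr.

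Among 13 tested genes of D cyclins, their kinases and inhibitors, 4 were lower in ethanol mice with a median of 0.036. Cdkn2c, the inhibitor p18 of the cyclin D kinases, differed by -0.24 (exact permutation p = 0.013), and on 4 ethanol arrays its signal was under the lowest control value. The S phase regulators E2f1 and Cdk2 differed by 0.21 and 0.18, and the inhibitor gene Cdkn1a by 0.19. Without the arrays low in Ttr these 3 differences were 0.093, 0.062 and 0.034. Of the 121 tested genes of these 6 lists, 5 (4.13%) were lower and 3 (2.48%) higher in ethanol mice at an unadjusted limma p under 0.05, against 2.05% lower and 2.44% higher of all tested genes.

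**Figure D3:**
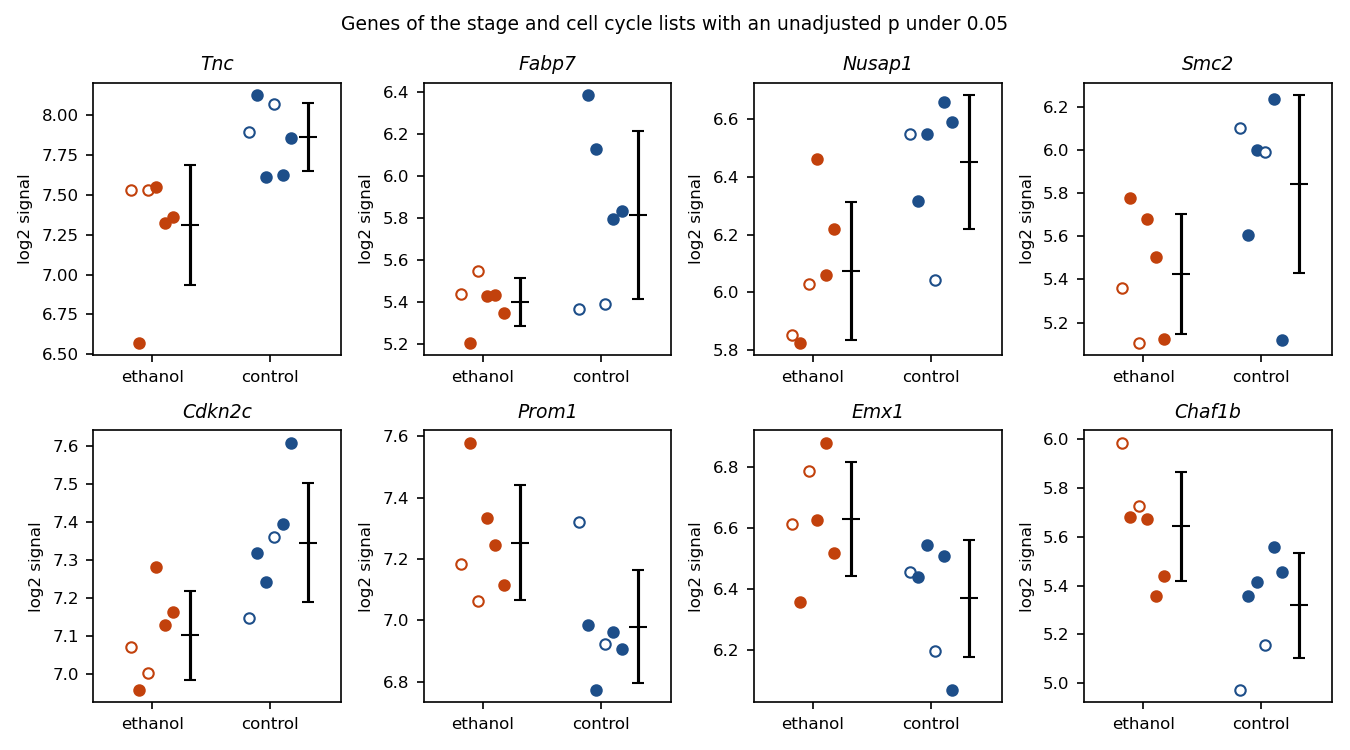
Log2 signal (vertical axis) of the 8 genes of the stage and cell cycle lists with an unadjusted p under 0.05, 5 lower and 3 higher (Prom1, Emx1 and Chaf1b) in ethanol mice, with the 6 ethanol arrays left of the 6 control arrays in each panel. Open circles are arrays low in Ttr and bars are mean ± SD. The groups are apart in Tnc, with ethanol arrays from 6.57 to 7.55 and control arrays from 7.61 to 8.13, and overlap in the other 7 genes. Of all tested probes 0.202% had groups that did not overlap.

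Markers of other cells that express some of the members were read beside them. Of 13 tested endothelial and mural genes, which bear on Nes, 5 were lower in ethanol mice with a median of 0.052, and their mean log2 signal ranged from 8.36 to 8.75 in ethanol mice and from 8.41 to 8.75 in control mice. The endothelial genes Pecam1 and Flt1 differed by 0.21 and -0.14. Vtn, second in that list by p, was also lower and Slco1a4 was higher. Without the arrays low in Ttr, Vtn differed by -0.15, Flt1 by -0.078 and Slco1a4 by 0.037. Of 11 oligodendrocyte precursor genes, another dividing population, 8 were lower with a median of -0.0097. The receptor gene Pdgfra differed by 0.19 (exact permutation p = 0.0043, adjusted limma p = 1.00) and the receptor gene Gpr17 differed by -0.13. Mean log2 signals of the precursor list ranged from 9.80 to 10.07 in ethanol mice and from 9.77 to 10.04 in control mice. Of 12 microglial genes, 10 were lower with a median of -0.075, and the list's mean ranged from 8.55 to 8.77 in ethanol mice and from 8.61 to 8.79 in control mice. Of 12 choroid plexus and ependymal genes, 5 were lower with a median of 0.037, and the list's mean ranged from 6.46 to 9.93 in ethanol mice and from 6.35 to 10.06 in control mice. The part of these cells in the differences of Nes and Prc1 was not tested. The list of the subventricular and olfactory interneuron lineage had 4 of 8 tested genes lower and a median of 0.0050. Of its 10 listed genes 6 were detected on all 12 arrays, and Dlx5 and Gsx2 on 0. Dlx1 and Dlx2, among those 6, are also in the progenitor and neuroblast list. Which cells carry these signals was not tested. Without the arrays low in Ttr the medians of the 11 lists plotted here lay between -0.13 and 0.053. Those of the immature neuron, oligodendrocyte precursor and mature granule cell lists turned in sign, to -0.0073, 0.033 and 0.053. Of the lists not plotted, the subventricular median turned to -0.014 and the choroid plexus and ependymal median to -0.022.

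**Figure D4:**
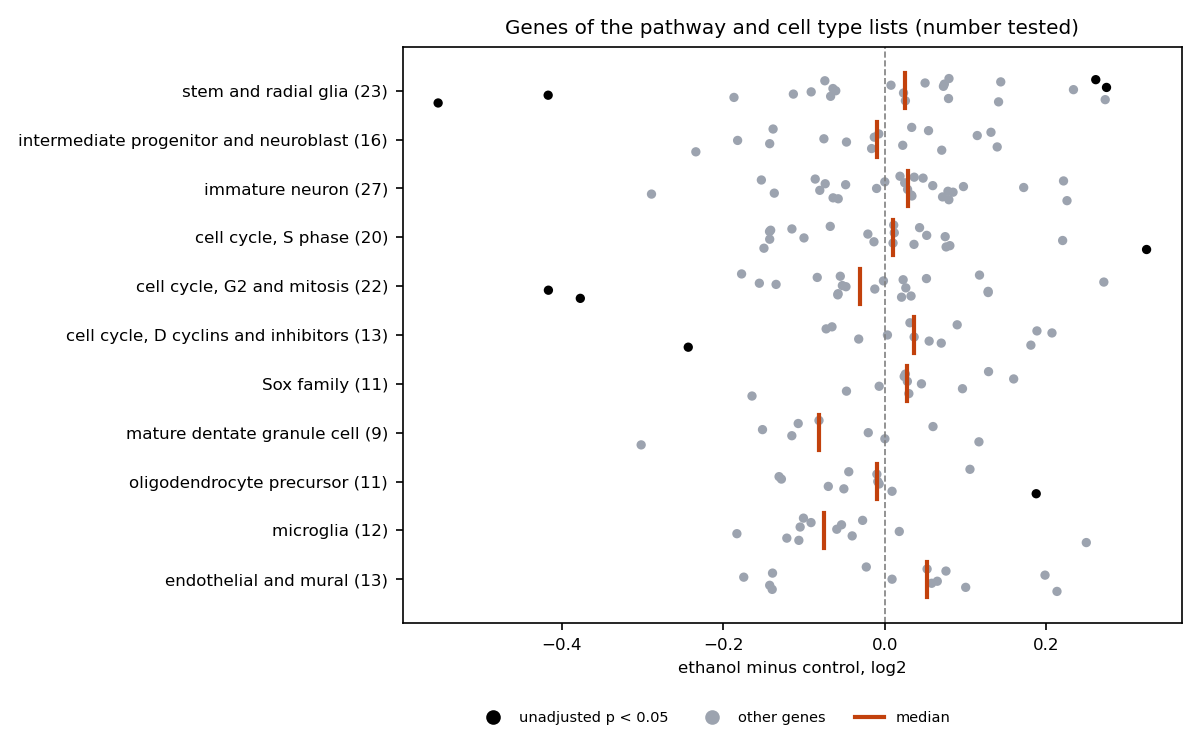
Difference of each tested gene, ethanol minus control on the log2 scale (horizontal axis), in 11 lists of stage, process or cell type, with the number of tested genes in parentheses. Black points have an unadjusted p under 0.05 and orange bars are list medians. Medians lie between -0.081 and 0.052, and Tnc is the lowest point at -0.55.

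Co-variation of the members was read over the 12 arrays. Deviations of each array from its group mean were correlated for the 21 pairs of the 7 tested members, and 0 pairs passed an adjusted permutation p of 0.05 (lowest adjusted p = 0.602). Pearson r ran from -0.50 for Sox11 and Prc1 to 0.63 for Sox11 and Dcx, and 14 of 21 values were positive. The stem cell genes Nes and Sox2 had an r of -0.062. Top2a and Prc1, both of dividing cells, had an r of 0.028.

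Sox11 and Dcx, both genes of young neurons, formed the pair with the highest correlation (r = 0.63, permutation p = 0.0287, and Spearman rho = 0.60, permutation p = 0.0423). It was 0.41 without the 2 arrays farthest from the median of Sox11, and 0.67 and 0.68 within beadchips 1 and 2. The arrays low in Ttr were high in both genes. They ran from 9.48 to 9.71 in Dcx against 9.26 to 9.60 on the other 8 arrays, and from 11.45 to 11.49 in Sox11 against 11.08 to 11.49. Within the other 8 arrays r was 0.29 (exact permutation p = 0.49), and with the mean of the tested probes of each gene it was 0.073 over all arrays. The correlation of the pair was thus lower without the 4 arrays low in Ttr and with the mean of the tested probes. Whether these values differ from 0.63 was not tested.

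Within the 8 arrays not low in Ttr, Top2a and Prc1 had an r of 0.73 (exact permutation p = 0.0283, adjusted p = 0.343 over 21 pairs) and a rho of 0.81. Sox11 and Neurod1 had an r of 0.73 there as well (exact permutation p = 0.0326, adjusted p = 0.343), against 0.30 over all 12 arrays. These were the 2 pairs with an unadjusted p under 0.05 by Pearson r among 21. By rank, Top2a and Prc1 and also Nes and Neurod1 had a rho of 0.81 (exact permutation p = 0.0218 each, adjusted p = 0.229), and Sox11 and Neurod1 had a rho of 0.71 (exact permutation p = 0.0576). After adjustment 0 pairs passed by either measure. Nes and Sox2 had an r of 0.46 in the same 8 arrays (exact permutation p = 0.269).

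**Figure D5:**
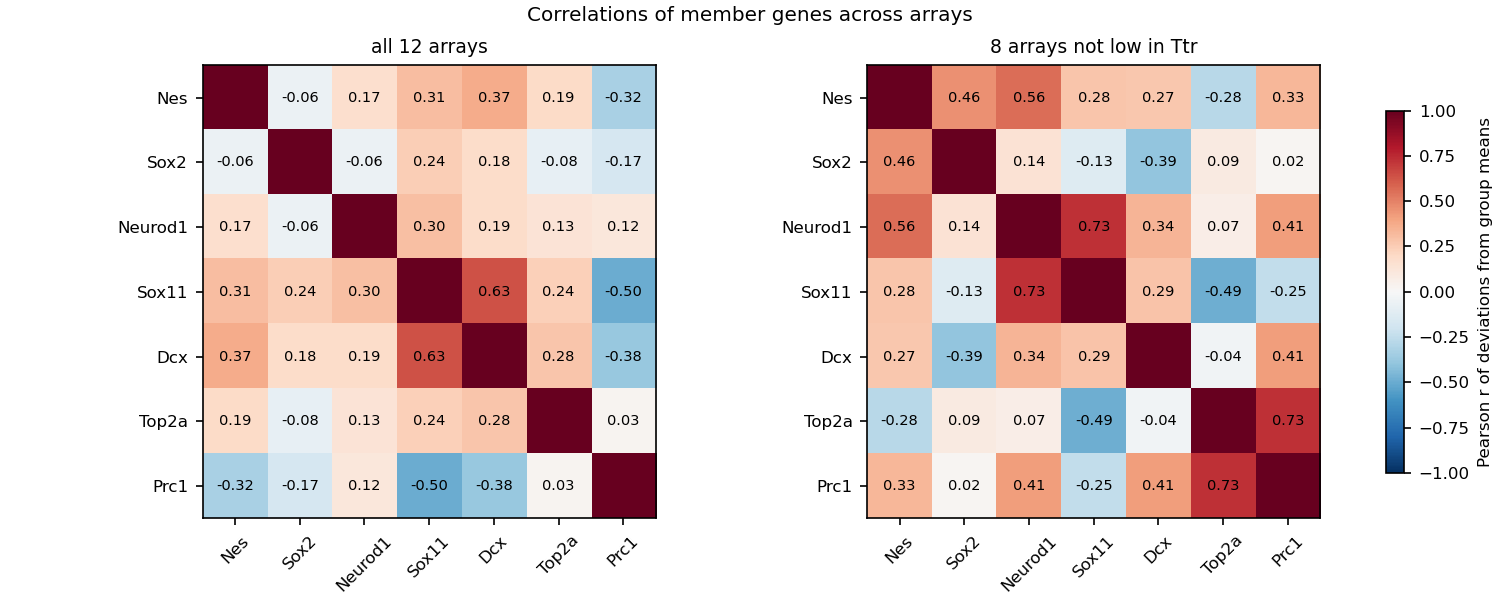
Pearson correlation, by colour and number, of the deviations of the 7 tested members from their group means over all 12 arrays (left) and over the 8 arrays not low in Ttr (right). Sox11 and Dcx change from 0.63 on the left to 0.29 on the right, and Top2a and Prc1 from 0.028 to 0.73.

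Top2a and Prc1 share promoter elements of genes expressed late in the cell cycle, for which their promoters are shown. The cell cycle homology region, TTTGAA, is bound by the DREAM complex, which represses such genes in resting cells, and the CCAAT box is bound by the factor NF-Y. The windows run from 250 bases before to 50 after the transcription start, 5′ to 3′ on the strand of the gene, from RefSeq on GRCm38.p6, and capitals mark TTTGAA and CCAAT on either strand (TTCAAA and ATTGG when reversed). Top2a lies at chr11:99024140-99024439 on the minus strand and Prc1 at chr7:80294201-80294500 on the plus strand.
Top2a: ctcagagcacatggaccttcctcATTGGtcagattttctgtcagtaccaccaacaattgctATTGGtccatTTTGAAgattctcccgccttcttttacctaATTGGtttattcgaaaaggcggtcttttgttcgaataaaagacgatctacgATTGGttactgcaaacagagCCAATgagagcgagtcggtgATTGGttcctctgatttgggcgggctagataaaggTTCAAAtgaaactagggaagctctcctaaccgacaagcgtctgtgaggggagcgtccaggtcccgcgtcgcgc
Prc1: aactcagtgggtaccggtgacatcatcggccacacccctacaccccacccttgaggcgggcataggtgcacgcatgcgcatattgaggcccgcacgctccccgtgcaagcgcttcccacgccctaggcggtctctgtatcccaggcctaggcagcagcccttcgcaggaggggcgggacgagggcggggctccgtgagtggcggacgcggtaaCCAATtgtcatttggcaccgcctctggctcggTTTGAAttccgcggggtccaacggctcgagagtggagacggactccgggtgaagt
The Top2a window held 2 matches to TTTGAA and 6 to CCAAT, and that of Prc1 held 1 of each, with no overlaps between matches. Of all 32851 promoter windows in the table, 17.9% held TTTGAA, 37.4% held CCAAT and 6.95% held both. Among the other members, Mki67 held 2 and 3 matches, Sox2 and Sox11 held 1 of each, Eomes held 0 and 2, Dcx held 0 and 1 at either of its 2 starts, and Nes and Neurod1 held neither. A match is a run of letters in the window, and binding was not measured.

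Each member was also set against the mean of each of 11 lists. Which cells carry these list means was not tested. Of the 77 correlations over 12 arrays 0 passed after adjustment (lowest adjusted permutation p = 0.284) and 8 had an unadjusted p under 0.05. Top2a followed the mean of the G2 and mitosis list (r = 0.62, permutation p = 0.0307) and did so within the 8 arrays not low in Ttr (r = 0.79). Dcx and Sox11 followed the immature neuron list over 12 arrays (r = 0.70 and 0.69), and had an r of 0.11 and -0.072 with it within those 8. Sox11 ran against the stem cell list (r = -0.65, permutation p = 0.0233, and -0.53 within the 8 arrays, 0.24 on beadchip 1 and -0.66 on beadchip 2) and against the list of D cyclins and inhibitors (r = -0.67, permutation p = 0.0181, and -0.60 within the 8). Sox2 correlated with the subventricular list (r = 0.62, permutation p = 0.0345, and 0.47 within the 8), at 0.89 on beadchip 1 and -0.79 on beadchip 2. Prc1 correlated with the list of D cyclins and inhibitors (r = 0.72, and 0.58 within the 8 arrays). A member of that list, the inhibitor gene Cdkn1c, ran from 9.23 to 9.43 on the arrays low in Ttr and from 10.25 to 10.77 on the others. The choroid plexus and ependymal list was not among the 11, and read gene by gene 10 of its 12 genes had an r over 0.5 with Prc1 (median r = 0.58), against 6.16% of all tested genes. The list's mean was 6.35 to 7.13 on the arrays low in Ttr and 9.67 to 10.06 on the others. Its genes vary together and are not separate observations. With Sox11 and Dcx the median r of those genes was -0.66 and -0.69. Foxj1 alone went the other way, at 0.70 with Sox11, 0.28 with Dcx and -0.30 with Prc1. Nes correlated with the microglial list (r = 0.67, permutation p = 0.0185, and 0.96 within the 8 arrays). With the endothelial and mural list Nes had an r of 0.39 (permutation p = 0.215, and 0.35 within the 8 arrays). That value was 0.85 on beadchip 1 and -0.19 on beadchip 2.

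The genes most like each member were taken by Pearson r of deviations over the 12 arrays among 11394 other tested genes. For Prc1 they were the collagen-modifying enzyme gene Plod1 (r = 0.94), the tetraspanin gene Cd9 (0.92) and the spindle gene Nusap1 (0.90, and 0.88 within the 8 arrays not low in Ttr). For Top2a they were Dnajc7 (0.92), Cbx6 (0.89) and Riox1 (0.89), and for Nes they were Mctp1 (0.92), Fam102b (0.89) and Usp28 (0.87). For Sox2 they were Arih2 (0.90), Map2k4 (0.87) and Qrich1 (0.87), and for Sox11 they were Nup50 (0.94), Ece2 (0.94) and Tmem121 (0.92). For Dcx they were Pcdhga7 (0.82), Scrn1 (0.82) and Ppp1r3d (0.82), and for Neurod1 they were Tubb4b (0.92), Dynlt3 (0.89) and Dgcr8 (0.88). The rank correlations of Tubb4b and Dynlt3 with Neurod1 were lower, at 0.48 each. Of these 21 genes Nusap1 is the one that a list of stage or process held.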

How the data were processed

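Total RNA of 12 hippocampi was labelled and hybridised to Illumina mouse bead arrays, and GenomeStudio 1.9.0 is named in the submitters' processing notes. The deposited table holds, per the file headers, a linear bead intensity and a detection p-value for each probe and array, not normalized between arrays. The authors also deposited a table of processed intensities, which was used as an alternative. The genome build of the array is not given in the sources used here.

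Background was removed with limma 3.58.1 in R 4.3.3 by normexp through the detection p-values, with an offset of 16, followed by quantile normalization and log2. A larger offset draws differences of dim probes towards 0, whereas background subtraction widens them. The difference of Nes was -0.50 in the main fit, -0.33 with an offset of 50 and -0.20 without background subtraction. Probes detected on at least 6 of 12 arrays were tested with lmFit and eBayes on group, with Benjamini-Hochberg adjustment over all 21263 probes. Probes were named through the platform annotation, updated through the Entrez number: 3190 tested probes had no gene, 18064 had 1, and 9 had more than 1 and stayed unnamed. The brightest tested probe stood for a gene. Tested on simulated data with 200 changed probes, the fit recovered 52.6% of log2 changes of 0.5 and 93.4% of log2 changes of 1, with 7.35% of calls false. The simulated noise was independent for each probe and array, whereas probes of the real arrays vary together. These shares therefore do not give the power of the fit in these data.

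Correlations used 100000 permutations over 12 arrays and exact enumeration over 8. Array pairs correlated at 0.981 to 0.993, and 0 pairs were identical. All 9 members were named, with up to 4 genes of each list by smallest p and the 3 most alike genes of each tested member. Members, lists and the split by Ttr were chosen with earlier results of these data known. The number of arrays limits the precision.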

Additional observations from a re-analysis of the deposited data

Results flagged for a closer look

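A single array stood apart in 2 of 20 groups of 6 values tested by Dixon's criterion over the 10 tested member probes, where chance gives about 1 in 20. Sox2 read 7.58 on ethanol 1, against 7.10 to 7.23 on the other ethanol arrays. Neurod1 read 6.82 on control 1, against 7.16 to 7.19 on the other control arrays. Both arrays were low in Ttr, and the cause was not tested.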

How the results depend on the processing

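No member, listed gene or member pair passed its adjusted threshold under any alternative run. Nes was lower in ethanol mice in each of 26 alternatives, by -0.59 to -0.20, with an unadjusted p under 0.05 in all of them, and leaving out single arrays gave -0.59 to -0.42. Prc1 was lower in 26 alternatives, with an unadjusted p under 0.05 in 12, and leaving out single arrays gave -0.41 to -0.26. The alternatives reuse the same arrays and are not separate tests. Those that change only the detection filter, the mean of probes, a block or the permutation cannot move either difference. They keep Nes at -0.50 and Prc1 at -0.31. Turned in direction were Top2a on beadchip 1 (0.18) and Dcx on beadchip 2 (-0.096). The correlation of Top2a and Prc1 turned with a common median (-0.093) and on beadchip 1 (-0.064), and ran from -0.12 to 0.40 when single arrays were left out. That of Nes and Sox2 turned with signals as they are (0.13), on beadchip 2 (0.79) and without the arrays low in Ttr (0.46), and ran from -0.20 to 0.28 when single arrays were left out. The cause was not tested. Scaling to a common median gave 256 probes lower and 942 higher at an unadjusted p under 0.05, against 500 and 522, and shifted the median of all probes to 0.051. Without a filter on detection 2088 probes had such a p, against 1022, with more probes tested. The replicate block, which cannot move these differences, gave Nes and Prc1 an adjusted limma p of 0.93 and 0.973, and changed no call. The correlations of same-numbered deviations ran from -0.25 to 0.33, and 1 of 6 numbers matched best. That number, 1, was low in Ttr in both groups. Numbers 3 and 4, low in Ttr in 1 group each, gave -0.25 and -0.20. The check thus also reads Ttr and cannot decide whether replicate numbers pair arrays. Low signal limits Eomes, Top2a, Fabp7, Smc2 and Chaf1b, whose probes lay near background. Nes passed detection on all arrays but was dim, with detection p-values of 0.032 on ethanol 1 and 0.033 on ethanol 5.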

Other observations

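Other lists near the dentate lineage were also without a called gene. Of 11 other Sox family genes tested, 3 were lower in ethanol mice, with a median of 0.028. Sox21 differed by -0.16, Sox18, a gene of endothelial cells, by 0.16, Sox17, also endothelial, by 0.13 and Sox12 by 0.096. Without the 4 arrays low in Ttr, Sox21 differed by -0.25 and Sox17 by 0.072. Of 9 mature granule cell genes tested, 6 were lower, with a median of -0.081 over all arrays and of 0.053 without those arrays. Among them Lct differed by -0.30 over all arrays and 0.11 without them, and the synaptic organiser gene C1ql2 by -0.11.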
